A study of Mus musculus with 14 samples.

Results

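The response of the line labelled R314A-CREB to transforming growth factor β (TGFβ) was described by setting its TGFβ library against its control library, which are 2 of the 14 RNA sequencing libraries of the series. For each gene the change was taken as the difference in log2(TPM + 1), TGFβ minus control, where TPM is a level per transcript length, scaled to the same total in each library. Genes that averaged 5 TPM or more in the pair of libraries were kept, which left 10434 of 40853 gene identifiers. A change of 2-fold or more on this scale, on which low genes appear less changed than they are, was used to count genes, since 1 library per side allows no test within the line.

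The cells were αTN4-1, lens epithelial cells derived from mice with a viral T antigen transgene, labelled as overexpressing CREB with the R314A substitution. The treated cells received 20 ng/mL TGFβ for 24 h in DMEM without FBS, and the other library is of the same line, labelled control. All lines were grown in DMEM with 10% FBS, antibiotics and 600 ug/mL neomycin. Whether the control cells were taken off serum is not in the labels, so a change with TGFβ cannot be told apart from one with serum withdrawal. Nor do the labels say whether a line is 1 clone or a pool. The other 6 lines, each with 1 TGFβ and 1 control library of the same kind, were labelled S133A/R314A-CREB, S133A-CREB, S133A-KCREB, KCREB, WT-CREB and Vector.

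TGFβ is a secreted factor that binds a pair of receptor kinases and leads to phosphorylation of SMAD2 and SMAD3, which enter the nucleus with SMAD4 and induce matrix, protease inhibitor and feedback genes. In lens epithelium it is known for driving the transition to mesenchymal cells seen in fibrotic cataract. CREB regulates genes through cAMP response elements, and the arginine replaced in R314A lies in its leucine zipper region and is known to be needed for binding of the CRTC coactivators. Type I interferons act through another route: receptor-bound kinases phosphorylate STAT proteins, which join IRF9 and bind interferon-stimulated response elements in front of antiviral genes.

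As a stand-in for depth, 1 FPKM stood for a per-base coverage of 5.74 in the TGFβ library and 5.05 in the control library of the R314A-CREB line. The control value was the lowest of the 14 libraries, and the highest was 10.1. Read totals are not given in the tables, so no counting interval is stated. Of 9 lens epithelial markers, 7 reached 1 TPM in both libraries of the line, with Cryab at 529 and Pax6 at 116 TPM in the TGFβ library and at 942 and 128 TPM in the control library. Foxe3 was listed at 0 in both libraries and the epithelial cadherin Cdh1 stood at 0.036 and 0.089 TPM, so these defining markers of lens epithelium were at or near 0. The 9 markers summed to 874 TPM with TGFβ and 1380 TPM in control, and 8 lens fiber markers summed to 0.702 and 3.46 TPM. The cultures are bulk samples, in which fewer cells of a type and less RNA per cell cannot be told apart.

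Creb1, the gene of the introduced protein (chromosome 1, 64571963 to 64643707, GRCm39), stood at 5.89 TPM in the TGFβ library and 9.04 TPM in the control library of the line. The Vector line had 23.1 TPM with TGFβ and 20.8 TPM in control. Both values of the line labelled R314A-CREB thus lay below those of Vector, so they do not show the overexpression that the label names. R314A-CREB is used below as a label. No source used here names the species of the introduced CREB, and whether its transcripts are counted under mouse Creb1 was not tested. The change of Creb1 with TGFβ was -0.54 on the log2 scale, below the range of -0.48 to 0.21 in the other lines, a difference of -0.45 ± 0.28 (SE) that did not pass limma over all genes (adjusted p = 0.904).

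With TGFβ, 150 of the 10434 genes (1.44%) were at least 2-fold higher and 230 (2.2%) at least 2-fold lower in the R314A-CREB line, and the median change of all genes was 0.02. At any size of change, 5560 genes were higher and 4874 lower. Skil, just inside the threshold, had a log2 change of 1.0012, and Pdgfc, just outside it, 0.9995. The corresponding pair at the lower threshold was 1190005I06Rik at -1.0019 and Trmt2b at -0.9999. Across the other lines the same counts ran between 49 higher and 60 lower genes in WT-CREB and 278 higher and 392 lower genes in KCREB. Across the 10434 genes, which are not independent replicates, the changes of the R314A-CREB line correlated with those of each other line with a Pearson r of 0.48 (WT-CREB) to 0.73 (S133A-CREB), as a description.

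**Figure D1:**
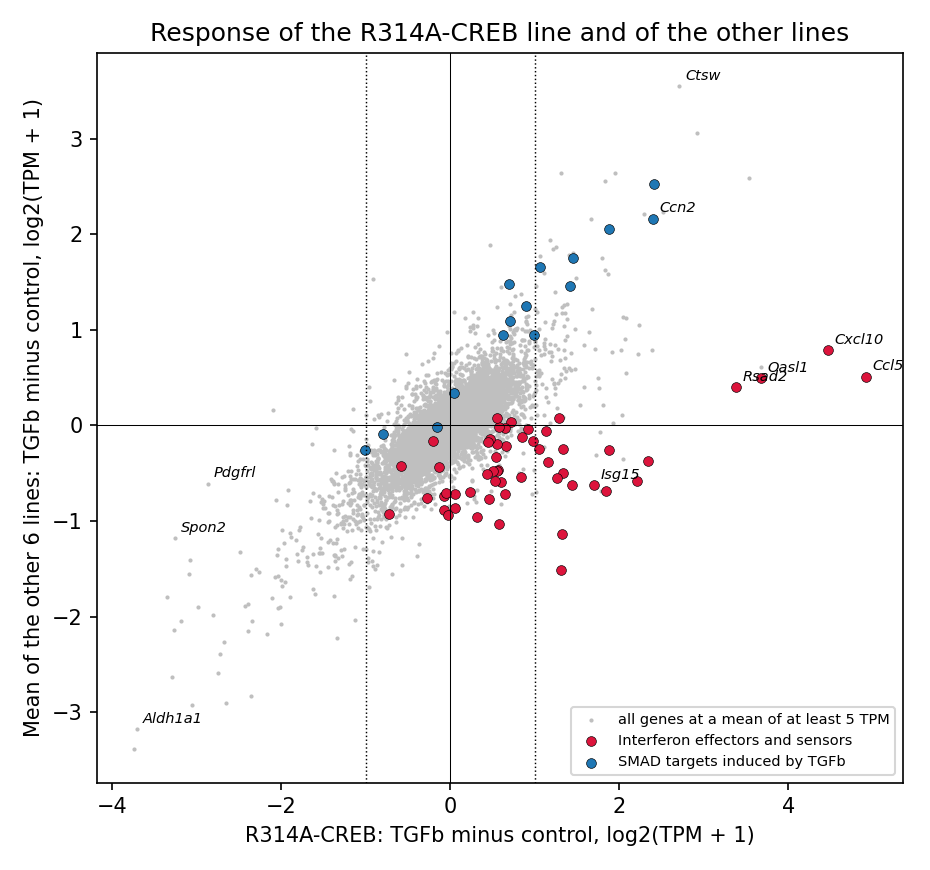
Change of each gene with TGFβ (TGFβ minus control, log2(TPM + 1)) in the R314A-CREB line on the horizontal axis and as the mean of the other 6 lines on the vertical axis, with dotted lines at 2-fold. SMAD targets (blue) lie along the cloud of all genes, and most interferon effectors (red) lie to its lower right, with Ccl5 at 4.92 and Cxcl10 at 4.47 in R314A-CREB.

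Most genes past 2-fold had the same direction in the other lines. Of the 150 higher genes, 101 also rose in the other 6 lines as a set (limma on the 6 within-line differences, adjusted p under 0.05), 45 were not called and 4 fell. Of the 230 lower genes, 213 also fell in the other lines, 17 were not called and 0 rose. In those lines 2723 of 12927 tested genes (21.1%) rose and 2452 (19.0%) fell. These shares, and those of 1.44% and 2.2% past 2-fold in R314A-CREB, are the background for the list counts below. Among the 4 genes that were higher in R314A-CREB and fell elsewhere were Ifih1, Ifit3 and Ifit3b, which are targets of the interferon pathway.

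SMAD target genes were mostly higher with TGFβ in the line. Of 15 measured SMAD targets, 6 were at least 2-fold higher and 1 at least 2-fold lower. The median change was 0.89, against 0.02 over all genes and medians of 0.73 to 1.53 in the other lines. In those lines 13 of 19 fitted members rose, where 21.1% of all tested genes did. Ccn2, a matricellular growth factor (chromosome 10, 24471340 to 24474581), stood at 868 TPM with TGFβ and 163 TPM in control. The other 6 lines had 279 to 998 TPM with TGFβ (median 740) and 77.1 to 349 TPM in control (median 130). The change of 2.40 lay inside the range of the other lines, 1.32 to 3.32.

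Fn1, which encodes fibronectin, stood at 741 TPM with TGFβ and 202 TPM in control (1.87, against 0.83 to 3.21), and Tgfbi, an extracellular adhesion protein, at 45.3 and 7.70 TPM (2.41, against 0.83 to 4.48). Jag1, a Notch ligand, was higher by 1.42 and the cytokine gene Il11 by 1.06. The member past 2-fold in the other direction was Ccn1, a matricellular relative of Ccn2, which stood at 283 TPM with TGFβ and 569 TPM in control. Its change of -1.01 lay below those of all other lines (-0.60 to 0.10), and the difference of -0.75 ± 0.27 did not pass (adjusted p = 0.778).

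Among SMAD feedback genes, which limit the signal, Pmepa1 stood at 489 TPM with TGFβ and 154 TPM in control (1.66), Skil at 49.5 and 24.2 TPM (1.00) and the inhibitory Smad7 at 30.9 and 17.9 TPM (0.75). These 3 changes lay within the ranges of the other lines. The list as a whole had 2 of 11 measured members past 2-fold, both higher, and a median of 0.36. The ligand gene Tgfb1 stood apart from its pattern elsewhere, at 152 TPM with TGFβ and 142 TPM in control. It rose in the other 6 lines, by 0.45 to 1.26, against 0.09 in R314A-CREB, a difference of -0.68 ± 0.28 that did not pass (adjusted p = 0.83). Tgfb2, another ligand, was higher by 0.82, inside the range of 0.54 to 1.03 elsewhere.

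Matrix and contractile genes differed in direction. Of 13 measured fibrillar collagen and collagen processing genes, 1 was 2-fold higher, Col1a1 (16.1 TPM with TGFβ and 6.198 TPM in control, 1.25), and 1 was 2-fold lower, the proteinase enhancer Pcolce (219 and 469 TPM, -1.10). The median of this list, 0.10, lay below the medians of the other lines, 0.29 to 0.74. Of 12 measured contractile genes, 3 were 2-fold lower and 0 higher, where 2.2% and 1.44% of all genes were. At any size of change 5 were higher and 7 lower. The median of -0.33 lay within the medians of the other lines (-0.59 to -0.09). Acta2, smooth muscle actin, was 2-fold lower, at 249 TPM with TGFβ and 731 TPM in control (-1.55). So were Mylk, the myosin light chain kinase, at 3.87 and 12.8 TPM (-1.50), and the myosin light chain gene Myl9 at 110 and 302 TPM (-1.45). Acta2 also fell in the other lines, by 0.99 ± 0.54 on the log2 scale (mean ± SD, n = 6 lines; limma adjusted p = 0.00406). Vim, an intermediate filament gene, stood at 6771 and 10649 TPM (-0.65).

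Transcription factors of epithelial-mesenchymal transition differed in direction. Snai2 stood at 33.8 TPM with TGFβ and 15.4 TPM in control, a change of 1.08 above the range of 0.06 to 0.70 in the other lines, with a difference of 0.65 ± 0.25 (adjusted p = 0.804). Prrx1, a mesenchymal homeobox gene, stood at 23.6 and 65.7 TPM (-1.44). Twist1, Zeb1 and Zeb2 differed by less than 2-fold, between -0.49 and 0.37. Cdh2, a cadherin gene, stood at 172 and 187 TPM (-0.12).

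Several of the highest changes of the line belonged to interferon-stimulated genes, which are set out here with their promoters. Of the 19 interferon effectors that were at least 2-fold higher, 14 could be matched by symbol to a table of RefSeq promoters (GRCm38.p6, 250 bases before to 50 after a gene start). The core of the interferon-stimulated response element was searched as TTTC, any 2 bases and TTTC again on both strands (GAAA, any 2 bases and GAAA on the other), with overlapping matches counted. It stood in a promoter of 11 of these 14 genes (78.6%), of 11 of 27 matched effectors that were not 2-fold higher (40.7%), and of 305 of 8296 matched genes of the 10434 (3.68%). The matched higher effectors without it were Oasl1, Ifi44 and Oasl2, and in Ifih1 the core began 32 bases after the gene start. Among all 150 higher genes it stood in 20 of 95 matched (21.1%), and among the 230 lower genes in 12 of 169 (7.10%). The cAMP response element TGACGTCA stood in 3 of 95 matched higher genes (3.16%) and in 2 of 169 lower genes (1.18%), against 3.80% of the 8296. A match is a description of the letters in this window and was not tested for function.

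The 250 bases before the start of 4 genes that were over 2-fold higher and of Gbp2, which was not, are shown 5′ to 3′ on the strand of the gene, from RefSeq on GRCm38.p6, because they let the same core be seen in both. Capitals mark the response element core. Cxcl10 (chr5:92348890-92349139, minus strand) holds 1 core that starts 213 bases before the gene start, and Rsad2 (chr12:26456453-26456702, minus strand) holds 1 core at 120 bases. Ifit1 (chr19:34640639-34640888, plus strand) holds 2 cores, the first at 104 bases, and Isg15 (chr4:156200819-156201068, minus strand) holds 3 overlapping cores from 78 bases. Gbp2 (chr3:142620413-142620662, plus strand) holds 1 core at 59 bases.
Cxcl10: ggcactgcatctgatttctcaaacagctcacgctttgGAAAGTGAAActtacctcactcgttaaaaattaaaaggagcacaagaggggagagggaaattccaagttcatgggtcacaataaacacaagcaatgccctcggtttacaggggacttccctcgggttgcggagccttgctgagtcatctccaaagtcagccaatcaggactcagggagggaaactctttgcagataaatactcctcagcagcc
Rsad2: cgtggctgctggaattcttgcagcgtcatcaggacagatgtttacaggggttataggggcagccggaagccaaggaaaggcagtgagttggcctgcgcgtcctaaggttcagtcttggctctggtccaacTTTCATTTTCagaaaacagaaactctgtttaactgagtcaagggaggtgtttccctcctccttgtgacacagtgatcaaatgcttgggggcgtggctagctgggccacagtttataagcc
Ifit1: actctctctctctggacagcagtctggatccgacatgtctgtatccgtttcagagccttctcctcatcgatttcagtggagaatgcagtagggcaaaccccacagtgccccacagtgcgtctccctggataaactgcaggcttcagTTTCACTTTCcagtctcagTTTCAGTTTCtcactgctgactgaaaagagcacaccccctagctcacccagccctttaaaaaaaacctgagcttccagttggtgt
Isg15: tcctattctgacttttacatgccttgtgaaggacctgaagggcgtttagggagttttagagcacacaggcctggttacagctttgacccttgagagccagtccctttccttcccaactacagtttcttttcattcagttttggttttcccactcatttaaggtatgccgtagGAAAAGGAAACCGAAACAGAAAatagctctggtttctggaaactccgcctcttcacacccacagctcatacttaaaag
Gbp2: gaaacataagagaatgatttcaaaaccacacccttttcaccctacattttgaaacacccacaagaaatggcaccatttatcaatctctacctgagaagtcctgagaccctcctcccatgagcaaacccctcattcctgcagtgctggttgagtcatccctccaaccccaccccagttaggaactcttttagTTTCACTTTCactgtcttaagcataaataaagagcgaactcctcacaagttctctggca

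The interferon ligands themselves were near 0. Of 22 interferon genes, 15 were listed at 0 in both libraries of the line, and the highest value was that of Ifnb1, the gene of interferon β, with 1.86 TPM in the TGFβ library and a listing of 0 in the control library. In the 12 libraries of the other lines Ifnb1 was listed at 0 in 11, and the exception was the TGFβ library of S133A-CREB with 1.08 TPM. Receptors and kinases showed small changes: Ifnar1 stood at 40.8 TPM with TGFβ and 45.9 TPM in control, Ifnar2 at 63.6 and 55.7 TPM, and Jak1 at 155 and 160 TPM.

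Regulators downstream of the receptors differed in direction. Irf7, the interferon regulatory factor that amplifies interferon production, stood at 137 TPM with TGFβ and 39.2 TPM in control. The other 6 lines had 3.30 to 151 TPM with TGFβ (median 13.5) and 9.42 to 94.0 TPM in control (median 25.5). The change in R314A-CREB was 1.78, while 5 of the other 6 lines had lower Irf7 with TGFβ, and the changes there ran from -1.79 to 0.68. The difference from the other lines was 2.47 ± 0.72 (SE, 95% CI 0.83 to 4.11, adjusted p = 0.744).

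Usp18, the protease that removes ISG15 and restrains the receptor, stood at 269 TPM with TGFβ and 81.2 TPM in control (1.72, against -1.05 to 1.00 elsewhere). Stat2 and Irf9, which act in the same transcription factor complex, were each higher by 0.62 in R314A-CREB, above the highest other line at 0.37 for Stat2 and at 0.26 for Irf9. Irf1 was at 104 TPM with TGFβ and 130 TPM in control, and Socs1, a feedback inhibitor, at 8.67 and 12.6 TPM. Of 18 measured receptor, JAK-STAT and IRF genes, 3 were past 2-fold, all higher, and the list median was -0.06.

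**Figure D2:**
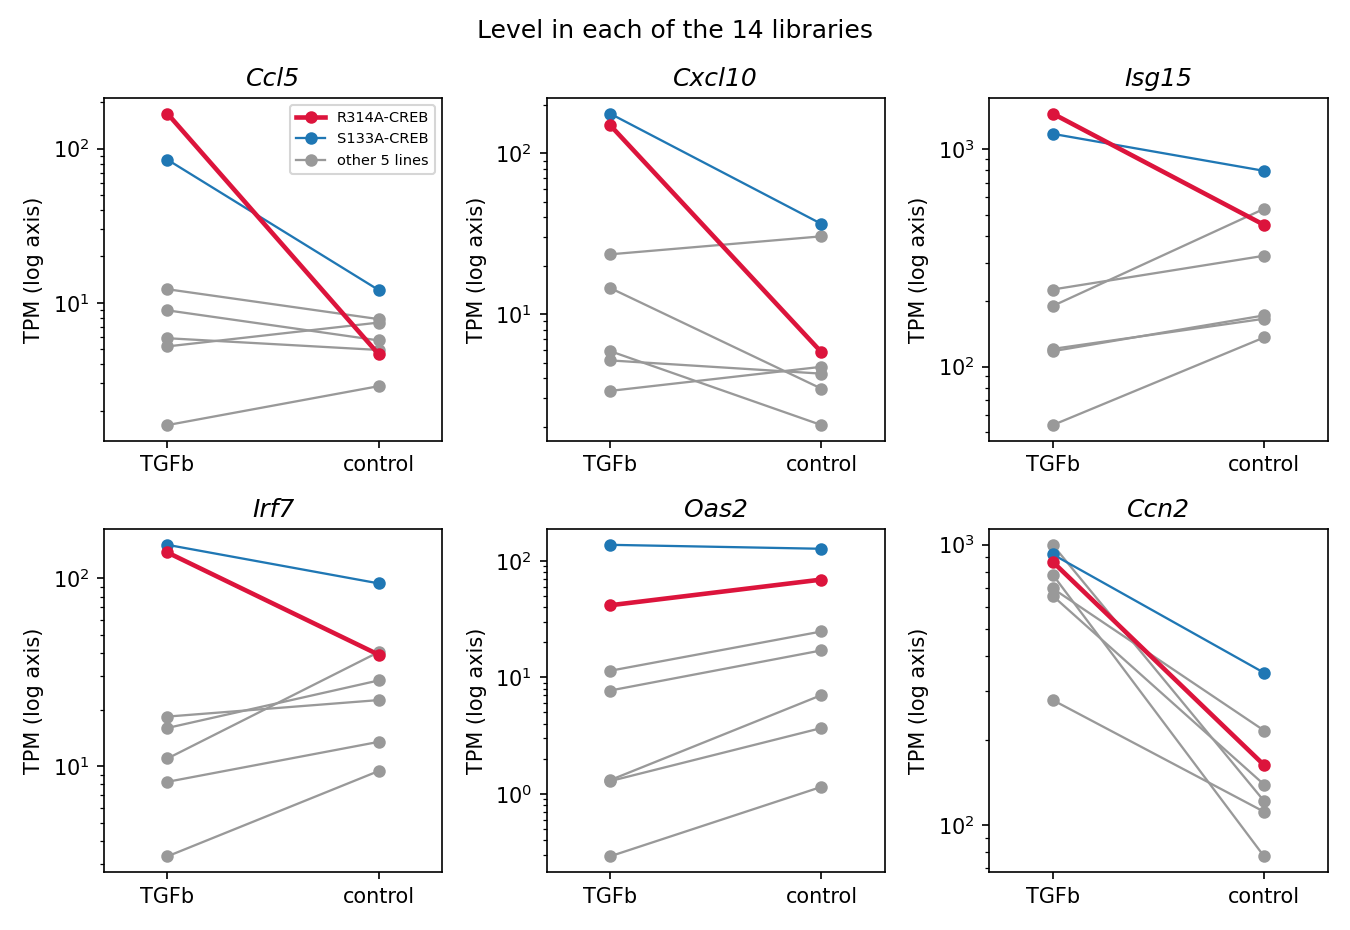
Level in TPM (log axis) of 6 genes in each of the 14 libraries, with TGFβ to the left of control and a line joining the 2 libraries of each cell line. In R314A-CREB (red) Ccl5 stood at 169 and 4.63 TPM, Cxcl10 at 150 and 5.79, Isg15 at 1459 and 449 and Irf7 at 137 and 39.2, while Oas2 was lower with TGFβ, as in 5 of the other 6 lines, and Ccn2 was higher in every line.

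Of 57 listed interferon effectors and sensors, 54 reached a mean of 5 TPM in the line. With TGFβ, 19 of the 54 were at least 2-fold higher and 0 at least 2-fold lower, where 1.44% and 2.2% of all genes were. At any size of change, 45 were higher and 9 lower, where 5560 and 4874 of the 10434 genes were. The median change was 0.62 against 0.02 for all genes. S133A-CREB had a median of 0.28, and the remaining 5 lines had medians from -0.75 to -0.39. The S133A/R314A-CREB line, which carries R314A too, was one of these 5. Over the other 6 lines 0 of 55 fitted members rose and 27 fell, where 21.1% and 19.0% of all tested genes did. The change in R314A-CREB lay above all 6 other lines for 44 of the 54, where 1591 of the 10434 genes did (15.2%), and below all 6 for 0.

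Ccl5, a chemokine that attracts T cells and monocytes (chromosome 11, 83416604 to 83421344), had the highest change of the 10434 genes. It stood at 169 TPM with TGFβ and 4.63 TPM in control. The other 6 lines had 1.61 to 84.9 TPM with TGFβ (median 7.42) and 2.88 to 12.1 TPM in control (median 6.58), so that the TGFβ library of R314A-CREB was the highest of the 14 and its control library lay within the range of the other controls. The change was 4.92, against -0.57 to 2.71 elsewhere, and the difference was 4.41 ± 1.00 (SE, 95% CI 2.13 to 6.68, adjusted p = 0.709).

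Cxcl10, a chemokine induced by interferon (chromosome 5, 92494497 to 92496748), stood at 150 TPM with TGFβ and 5.79 TPM in control. The other lines had 3.33 to 177 TPM with TGFβ (median 10.2) and 2.04 to 36.4 TPM in control (median 4.48), and the value above R314A-CREB was that of S133A-CREB. The change was 4.47 and the difference 3.69 ± 0.95 (adjusted p = 0.744).

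Oasl1, which in mice restrains translation of Irf7, stood at 61.7 TPM with TGFβ and 3.90 TPM in control. The other lines had 0.636 to 13.6 TPM with TGFβ (median 3.67) and 0.413 to 7.65 TPM in control (median 2.26). The R314A-CREB library with TGFβ was thus the highest of the 14. Rsad2, the antiviral enzyme viperin, stood at 54.1 TPM with TGFβ and 4.28 TPM in control, with differences from the other lines of 3.18 ± 0.62 for Oasl1 (adjusted p = 0.652) and 2.98 ± 0.63 for Rsad2 (adjusted p = 0.657).

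Other effectors had smaller changes. Isg15, a ubiquitin-like modifier, stood at 1459 TPM with TGFβ and 449 TPM in control, against 53.8 to 1178 TPM with TGFβ (median 155) and 136 to 795 TPM in control (median 248) elsewhere. Its change was 1.70, while 5 of the other 6 lines had less Isg15 with TGFβ. Ifit1, which binds foreign RNA caps, stood at 336 and 72.0 TPM (2.21), and the dynamin-like antiviral genes Mx2 at 113 and 21.7 TPM (2.34) and Mx1 at 11.8 and 2.56 TPM (1.84). Ifih1, the RNA sensor MDA5, stood at 38.3 and 13.4 TPM (1.44), and Ddx58, the sensor RIG-I, at 493 and 337 TPM (0.55). The guanylate-binding genes Gbp3 and Gbp7 were higher by 1.33 and 1.06.

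Ifit3 and Ifit3b were higher by 1.33 and 1.31. They are near-identical copies, as are some members of the Oas and Apol9 families, so the split of reads between copies is uncertain.

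Members of the list that did not follow were few. Oas2, an oligoadenylate synthetase, stood at 41.6 TPM with TGFβ and 69.2 TPM in control (-0.72), and Ifi27 at 217 and 326 TPM (-0.59). Gbp2, whose promoter is shown above, stood at 85.9 and 87.5 TPM (-0.03), although this lay above all other lines (-1.63 to -0.32). The other 6 members with lower values, Lgals9, Ifitm2, Oas3, Ifitm3, Lgals3bp and Tap1, had changes between -0.28 and -0.05. Of 18 measured MHC class I and antigen processing genes 0 were past 2-fold, where 1.44% of all genes were higher and 2.2% lower. The median was -0.08, and the highest was the non-classical class I gene H2-T23 at 0.62. Cd74, of MHC class II, is not in this list and is given below.

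**Figure D3:**
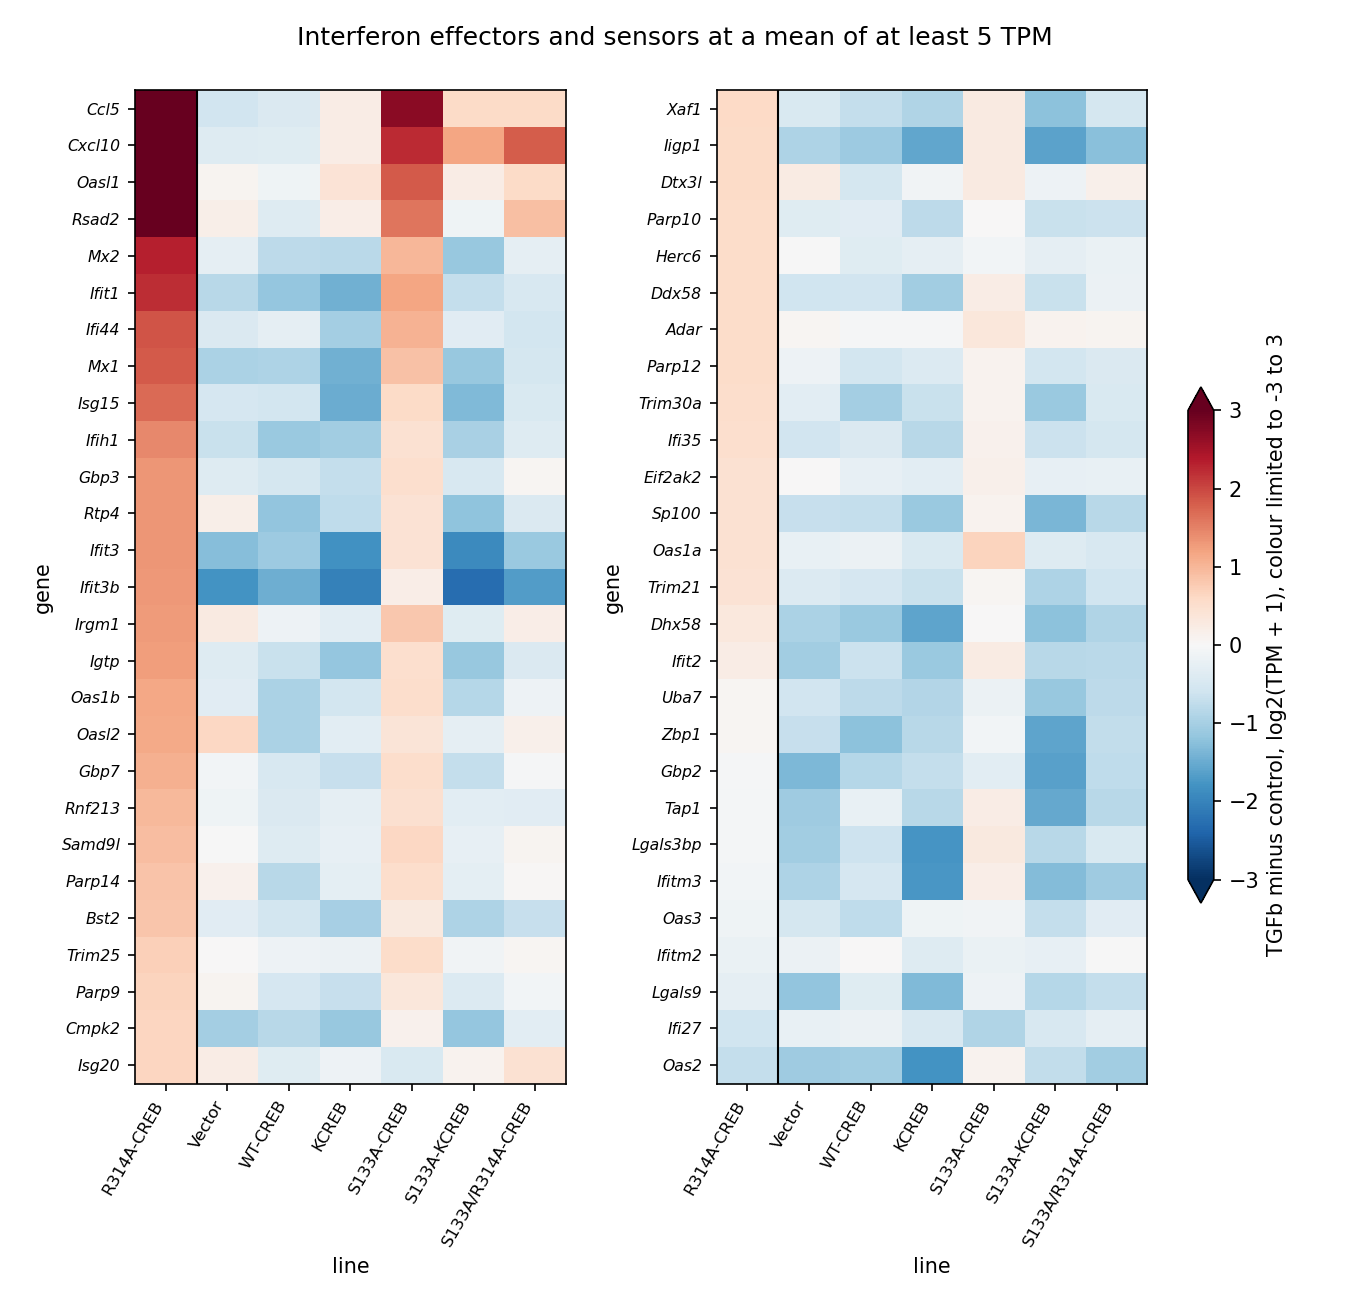
Change with TGFβ (TGFβ minus control, log2(TPM + 1), colour limited to -3 to 3) of the 54 interferon effectors and sensors at a mean of at least 5 TPM, ordered by the R314A-CREB line, which is the first column, beside the other 6 lines. Red marks higher and blue lower with TGFβ: 45 members were higher in R314A-CREB, and S133A-CREB is the other line with a median above 0.

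Of the 150 genes that were 2-fold higher, 20 had the opposite mean change in the other lines, and 17 of these stood in the interferon lists. The other 3, named after their values were seen, were Apol9a (238 TPM with TGFβ and 57.1 TPM in control), Mndal (11.0 and 2.49 TPM) and Tgtp1 (9.28 and 3.75 TPM), which are interferon-inducible in mice. Of the 230 lower genes, 2 had the opposite mean elsewhere, the small RNA genes Snord59a and Mir6960. In all, 22 of the 150 stood in the interferon lists. All 22 lay above the 6 other lines, as did 81 of the 150 (54.0%), a position that the choice of 2-fold higher genes in part fixes.

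The difference of R314A-CREB from the other 6 lines was tested with limma on the 7 within-line changes, in which the lone R314A-CREB change is assumed to vary like the others. With 12927 genes tested, 0 genes (0.0%) passed an adjusted p under 0.05 in either direction, and at an unadjusted p under 0.05 there were 417 higher and 351 lower genes. Of the 54 measured interferon effectors, 40 had a higher change at an unadjusted p under 0.05, and 0 passed after adjustment. Without the S133A-CREB line, whose changes were the nearest, 6 genes passed as higher, Ccl5 (4.85), Oasl1 (3.45), Ifit3b (3.16), Ifit1 (3.14), Mx2 (2.99) and Rnf213 (1.28), and 2 as lower, TrnW and Gm46614, all at an adjusted p of 0.0498. For the higher genes, leaving out the line nearest to R314A-CREB raises the difference by construction, so these calls are no separate support. They did not arise when another line was left out. The spread behind these p-values is that of single cultures of different lines, and the p-values of the interferon effectors depend on the pairing by line.

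The smallest adjusted p with all lines was 0.0769, for TrnW, a mitochondrial transfer RNA, and for Gm46614, a predicted gene. TrnW stood at 165 TPM with TGFβ and 496 TPM in control of R314A-CREB, while the other lines had 138 to 236 TPM with TGFβ and 134 to 285 TPM in control. The control library of R314A-CREB was thus the 1 that stood apart, and the difference was -1.55 ± 0.16. Snord59a, a small nucleolar RNA, had its highest value in the same control library and its lowest in the TGFβ library of the line, with 1.38 TPM with TGFβ and 9.13 TPM in control, against 2.38 to 3.76 TPM and 1.80 to 3.54 TPM elsewhere (-2.25 ± 0.41, adjusted p = 0.652). Of the genes past 2-fold, 16 of the 150 higher and 9 of the 230 lower were small RNAs, whose levels per length rest on very few bases.

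**Figure D4:**
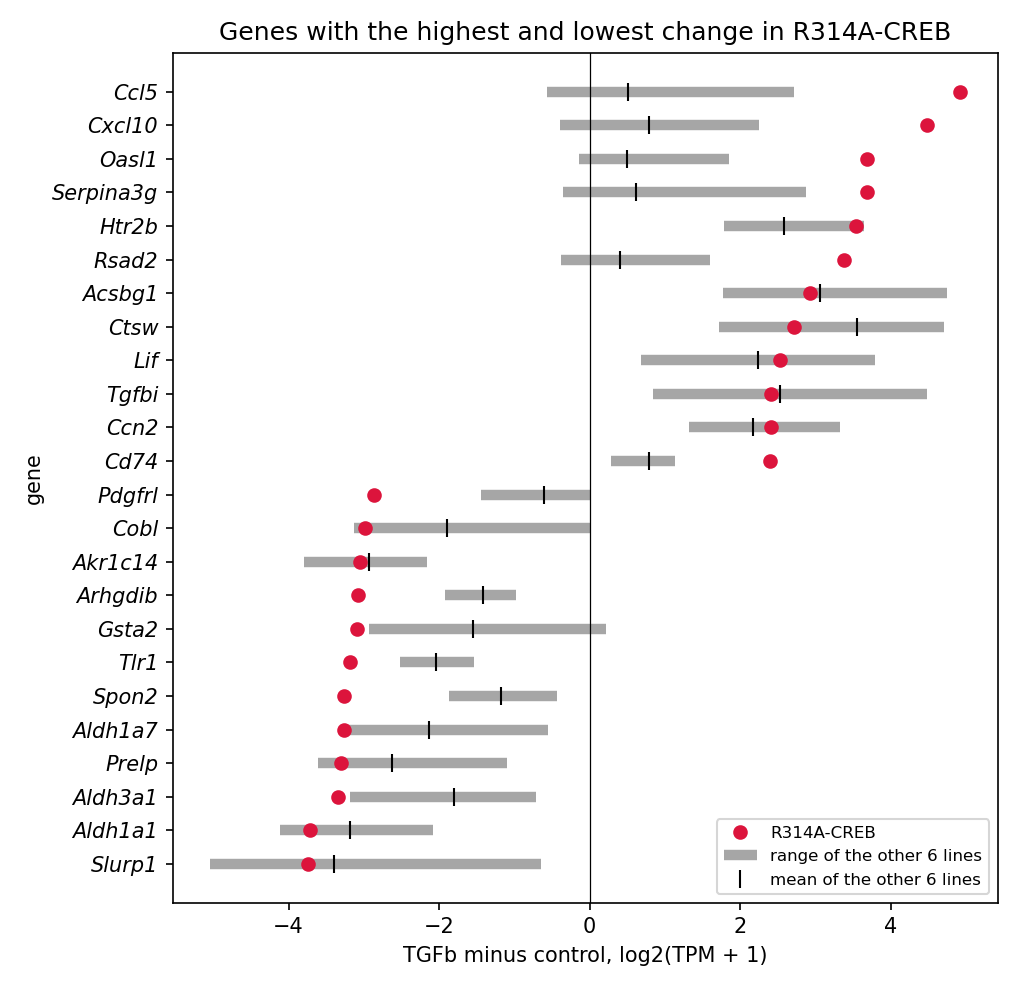
Change with TGFβ (TGFβ minus control, log2(TPM + 1)) of the 12 named genes with the highest and the 12 with the lowest values in R314A-CREB (red points), with the range (grey bars) and mean (black ticks) of the other 6 lines. Ccl5, Cxcl10, Oasl1, Serpina3g, Rsad2 and Cd74 lie above the grey bars. Spon2, Arhgdib, Tlr1, Pdgfrl, Aldh3a1, Aldh1a7 and Gsta2 lie below them.

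Among the 12 highest named genes outside the interferon lists, Serpina3g, a serpin of immune cells, stood at 11.8 TPM with TGFβ and was listed at 0 in control, so no fold is given. Cd74, the invariant chain of MHC class II, stood at 13.6 and 1.78 TPM. Its change of 2.39 lay above the range of 0.28 to 1.13 elsewhere (difference 1.60 ± 0.32, adjusted p = 0.652), and its control value was below those of all other controls (2.36 to 38.7 TPM). The serotonin receptor gene Htr2b stood at 18.6 and 0.691 TPM (3.53), the acyl-CoA synthetase gene Acsbg1 at 59.9 and 7.03 TPM (2.92), the cathepsin gene Ctsw at 111 and 16.2 TPM (2.71) and the cytokine gene Lif at 20.3 and 2.702 TPM (2.52). These 4 rose in the other lines too, with changes in R314A-CREB inside their ranges.

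Chemokines had the highest list median, 1.05 over 7 measured members, against -0.36 to 0.49 in the other lines. Besides Ccl5 and Cxcl10, both also in the interferon list, the monocyte chemokines Ccl7 (26.5 TPM with TGFβ and 6.22 TPM in control, 1.93) and Ccl2 (305 and 147 TPM, 1.05) were past 2-fold. Of 18 measured NF-kB feedback and inflammatory genes 0 were 2-fold higher and 1 lower, where 1.44% and 2.2% of all genes were. The lower gene was Vcam1, a leukocyte adhesion molecule (4.08 and 25.5 TPM, -2.39). The list median of 0.07 lay within the medians of the other lines (-0.05 to 0.42). A list of 15 macrophage and leukocyte markers summed to 28.9 TPM with TGFβ and 44.1 TPM in control, against 22.3 to 59.5 TPM and 30.4 to 93.7 TPM in the other lines, and 6 of the 15 were listed at 0 in both libraries. The 6 of these markers used to check cell type, without Lyz2, summed to 16.1 TPM with TGFβ and 9.02 TPM in control. The pan-leukocyte gene Ptprc stood at 0.168 and 0.249 TPM and the macrophage gene Adgre1 was listed at 0. Cd68 was higher with TGFβ (9.91 and 3.62 TPM) and the lysozyme gene Lyz2 lower (11.2 and 34.7 TPM).

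Aldehyde dehydrogenases were among the genes with the lowest changes of the line. Aldh1a1, a retinaldehyde dehydrogenase of lens and cornea, stood at 6.78 TPM with TGFβ and 101 TPM in control. The other lines had 3.91 to 72.3 TPM with TGFβ (median 23.9) and 24.0 to 749 TPM in control (median 191), and the change of -3.71 was inside their range of -4.12 to -2.08. Aldh3a1, a corneal crystallin, stood at 164 and 1674 TPM. Its change of -3.35 lay just below the lowest other line at -3.18, and the difference of -1.55 ± 0.89 did not pass (adjusted p = 0.888).

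Of 13 measured retinoid, aldehyde dehydrogenase and aldo-keto reductase genes, 5 were 2-fold lower and 1 higher. The aldo-keto reductases Akr1c14 and Akr1c18 had log2 changes of -3.06 and -2.65, and Aldh1a7, a close copy of Aldh1a1, had -3.27. The exception was the retinoic acid carrier Crabp2, at 10.8 TPM with TGFβ and 4.38 TPM in control (1.14). Prelp, a leucine-rich matrix protein, stood at 23.02 and 235 TPM (-3.30), with -3.61 to -1.10 elsewhere.

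Some genes had lower changes in R314A-CREB than in all the other lines. Spon2, a secreted matrix protein, stood at 0.782 TPM with TGFβ and 16.04 TPM in control (difference -2.07 ± 0.48, adjusted p = 0.709). Arhgdib, a GTPase regulator best known in blood cells, stood at 2.55 and 29.0 TPM (-1.67 ± 0.31, adjusted p = 0.652), and Pdgfrl, a receptor-like protein, at 0.947 and 13.2 TPM (-2.26 ± 0.50, adjusted p = 0.709). The control value of Pdgfrl was the highest of the 14 libraries. Tlr1, a receptor for bacterial lipopeptides, stood at 0.333 and 11.1 TPM, and Gsta2, a glutathione transferase with near-identical copies, at 0.519 and 11.97 TPM. Slurp1, a secreted epithelial protein that was also low with TGFβ in other lines, was listed at 0 with TGFβ and at 12.4 TPM in control.

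Genes of the NRF2 and glutathione list were mostly lower, 23 of 25 measured members, with 5 past 2-fold and a median of -0.31. Gsta4 stood at 28.3 TPM with TGFβ and 119 TPM in control (-2.03), Nqo1, a quinone reductase, at 36.3 and 128 TPM (-1.79), and Gstm1 at 140 and 424 TPM (-1.59). The member past 2-fold in the other direction was the cystine transporter Slc7a11, with 17.4 and 6.998 TPM (1.21).

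Cholesterol synthesis and uptake had the lowest median among lists with at least 5 measured genes, -0.79 over 25, against -0.81 to -0.13 in the other lines. In R314A-CREB 24 of the 25 were lower, where 4874 of the 10434 genes were, and 5 were 2-fold lower, where 2.2% were. In the other lines 17 of 25 fell and 0 rose, where 19.0% and 21.1% of all tested genes did. Lss, lanosterol synthase, stood at 79.4 TPM with TGFβ and 229 TPM in control (-1.52), mevalonate kinase Mvk at 67.2 and 174 TPM (-1.36), Msmo1 at 275 and 597 TPM (-1.12) and Hmgcs1, the synthase at the start of the pathway, at 403 and 858 TPM (-1.09). For 11 of the 25 the change lay below all 6 other lines, where 1543 of the 10434 genes did (14.8%).

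Genes listed for the amino acid response and the transcription factor ATF4 were mostly higher, 23 against 5 lower. Of 28 measured genes 6 were 2-fold higher and 0 lower, and the median was 0.60, within the medians of the other lines (0.15 to 0.70). In those lines 19 of 28 fitted genes rose and 2 fell, where 21.1% and 19.0% of all tested genes did. Chac1, which degrades glutathione, stood at 148 TPM with TGFβ and 57.0 TPM in control, a change of 1.36 against 0.18 to 0.86 elsewhere (difference 0.86 ± 0.21, adjusted p = 0.744). Trib3, a pseudokinase, stood at 120 and 44.7 TPM (1.40), and Ppp1r15a, which reverses the translational block, at 77.4 and 32.4 TPM (1.23), both above all other lines. The unfolded protein response list had 21 of 23 members higher and 2 past 2-fold, the co-chaperone Dnajb9 (76.7 and 29.3 TPM) and Xbp1 (157 and 77.5 TPM).

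All 27 measured ribosome biogenesis genes had higher values with TGFβ, with a median of 0.51 against 0.20 to 0.73 in the other lines. In those lines 22 of 30 fitted genes rose, where 21.1% of all tested genes did. Nop56, a core protein of small nucleolar particles, was the member past 2-fold (289 TPM with TGFβ and 133.2 TPM in control, 1.11). Myc, the transcription factor that drives ribosome synthesis, stood at 153 and 48.6 TPM, a change of 1.64 above all other lines (0.37 to 1.57). Atf3, a stress-induced AP-1 relative, stood at 20.9 and 3.63 TPM (2.24, against 0.32 to 1.69), with a difference of 1.18 ± 0.48 (adjusted p = 0.822). In the list of AP-1, EGR, MYC and serum response genes 4 of 25 were 2-fold higher and 0 lower.

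Of 21 measured cAMP-CREB target genes, 3 were 2-fold higher, where 1.44% of all genes were, and 0 lower, with a median of 0.13. Nfil3, a leucine zipper repressor, stood at 68.3 TPM with TGFβ and 20.7 TPM in control (1.67), the kinase gene Sgk1 at 322 and 136 TPM (1.24) and Gadd45b at 198 and 93.6 TPM (1.07). The immediate early gene Fos stood at 3.93 and 6.44 TPM (-0.59). The change lay above all other lines for 7 of the 21, where 15.2% of all genes did. None of the 18 measured CREB subfamily, coactivator and PKA genes was past 2-fold, and the highest was Creb3l2 (59.9 and 30.6 TPM, 0.95), a membrane-bound relative. The coactivator genes Crtc1, Crtc2 and Crtc3 had changes of 0.00, 0.02 and -0.03.

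Of 15 measured clock genes, 9 were higher and 6 lower, and the median of 0.23 lay above the medians of the other lines (-0.15 to 0.07). The member at least 2-fold higher was Nfil3, given above, and 2 were at least 2-fold lower. The PAR leucine zipper gene Dbp stood at 4.33 TPM with TGFβ and 19.9 TPM in control (-1.97) and Per3 at 12.4 and 30.8 TPM (-1.25), and both lay below all other lines. They also fell in the other lines (limma adjusted p of 0.000958 for Dbp and 0.00455 for Per3). No harvest time of day is stated in the labels.

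**Figure D5:**
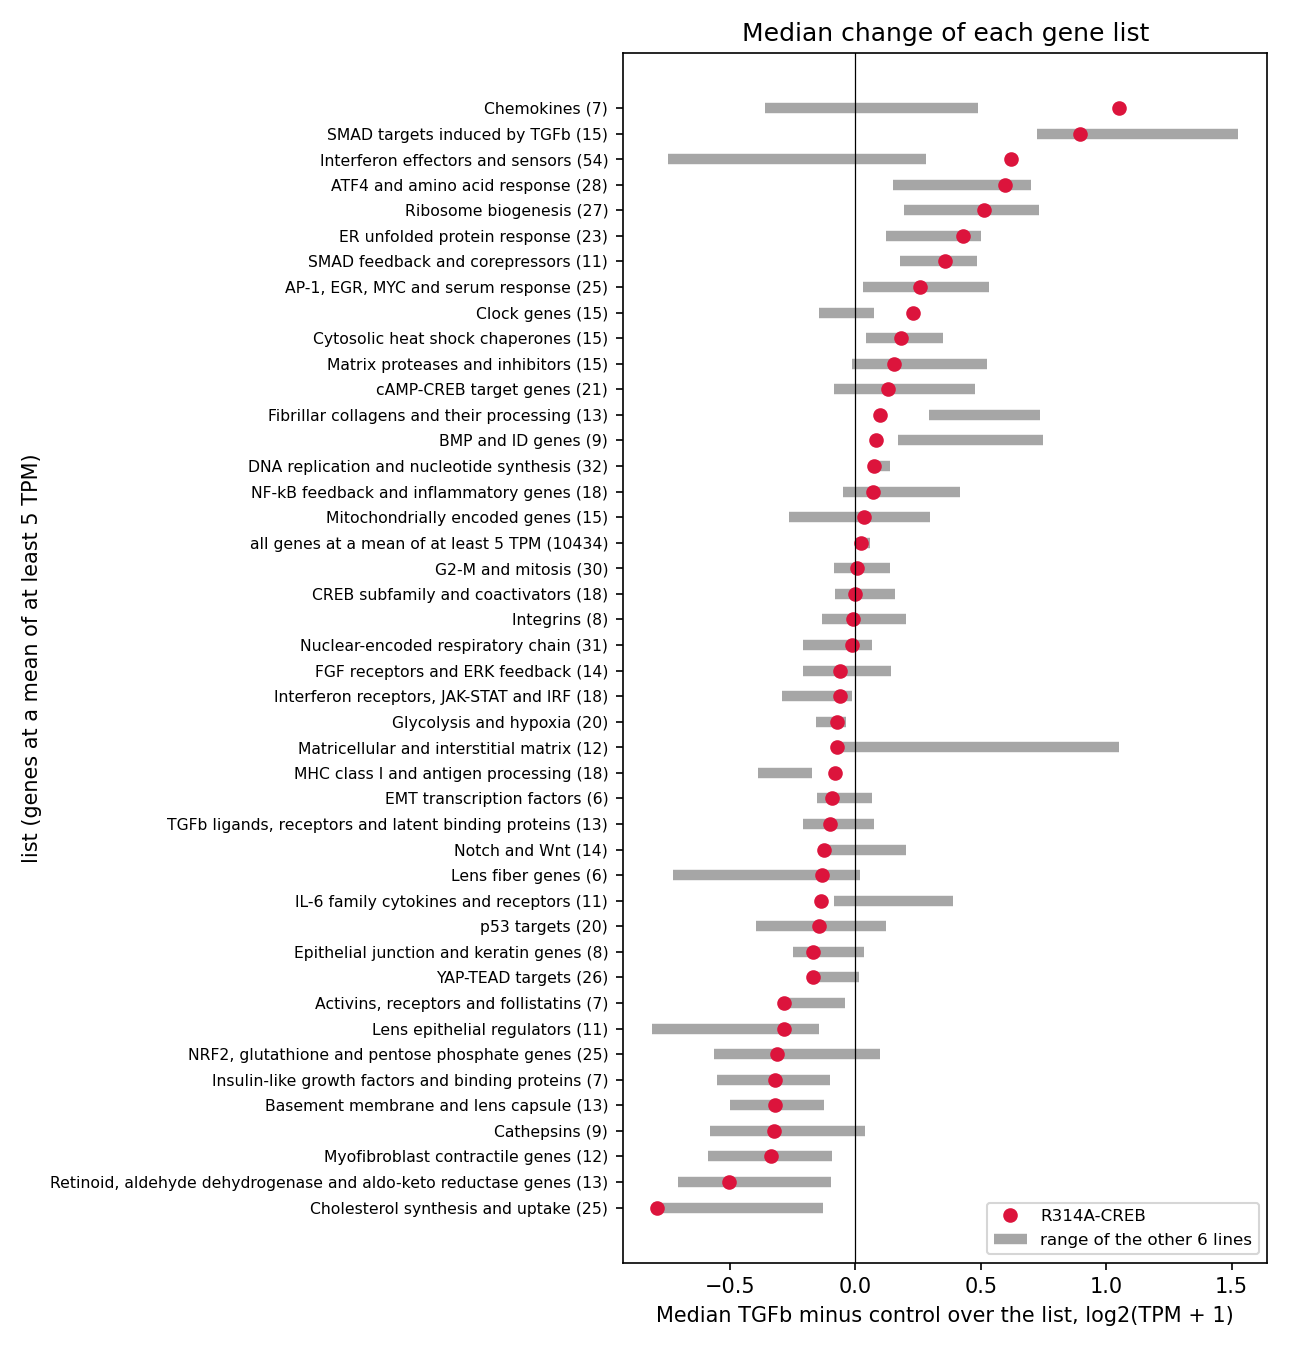
Median change with TGFβ (TGFβ minus control, log2(TPM + 1)) of each gene list with at least 5 measured members in R314A-CREB (red points) and the range of the same median over the other 6 lines (grey bars). Chemokines (1.05) and interferon effectors (0.62) lie to the right of their bars, as do clock genes (0.23) and MHC class I (-0.08). Fibrillar collagens (0.10), BMP and ID genes (0.08), IL-6 family, DNA replication, YAP-TEAD targets and Notch and Wnt lie to the left of theirs, while cholesterol synthesis has the lowest value (-0.79).

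Proliferation and respiration lists had no member past 2-fold. This held for 30 measured genes of G2-M and mitosis (median 0.01), 32 of DNA replication (0.07) and 20 p53 targets (-0.15 by their median). It also held for 31 nuclear-encoded respiratory chain genes (-0.01) and 15 mitochondrially encoded genes (0.04). The last list leaves out transfer RNAs such as TrnW, given above. With transfer RNAs included, mitochondrially encoded genes held 7.21% of TPM with TGFβ and 8.20% in control. Lens regulators were mostly lower, 9 of 11 measured, and the member past 2-fold was Jag1, given above. Sox2, a regulator of early lens, stood at 69.8 TPM with TGFβ and 132 TPM in control (-0.91), and Pax6, the master regulator of eye development, differed by -0.13, near the upper end of the range of -0.81 to -0.05 in the other lines.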

How the data were processed

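RNA of the 14 cultures was sequenced on a DNBSEQ-T7 instrument, per the labels' protocols. Per the submitters' processing notes, the tools were STAR 2.7.6a, edgeR and StringTie 2.0.4 and the build was GRCm39, without a role for any of them. Whether counting used strand, and which annotation was used, is not stated. Per the file headers, the tables deposited by the authors list TPM, FPKM and per-base coverage by gene. They hold no counts, so no count model was used. Rows that share a gene identifier were summed.

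Changes are log2(TPM + 1), TGFβ minus control. Genes averaging 5 TPM or more in the R314A-CREB libraries were described. Tests used limma 3.58.1 (R 4.3.3, intensity trend) on within-line changes of 12927 genes, those averaging 1 TPM or more in the 14 libraries. They were two-sided, with Benjamini-Hochberg adjustment over all of these genes (threshold 0.05). The line label pairs its libraries, since both come from the same cell line. The procedure was tested on simulated data. No line and treatment has a second library.

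Named were Creb1, the 12 highest and 12 lowest changes (predicted genes and pseudogenes passed over), the 5 largest differences from the other lines in each direction outside their range, up to 6 members per gene list with the largest change, any measured member of the interferon, MHC, SMAD and CREB lists, and a fixed set of TGFβ and lens genes. Genes, lists and members were chosen with earlier results of these data known, and no list was tested. Promoters are RefSeq, GRCm38.p6, matched by symbol, and gene positions come from the deposited tables (GRCm39). Alternatives were pseudocounts of 0.1 and 5, other filters, scalings and FPKM, no trend, no pairing, leaving out each other line, and only the lines without S133A. Some measured genes are not reported here.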

Additional observations from a re-analysis of the deposited data

How the results depend on the processing

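The count of 2-fold higher genes in R314A-CREB was 323 with no filter on low values and 89 with FPKM in place of TPM. That of 2-fold lower genes was 420 and 131 under these settings, which test more and fewer genes by construction. None of the 103 single genes recomputed reversed its change in R314A-CREB under the alternatives run. The size of the change was not always kept: 26 of 786 recomputed values were classed as moved and 760 as the same. Among the genes with moved values were Arhgdib, Spon2, Pdgfrl, Tlr1, Slurp1, Cd74 and Htr2b. For the difference of R314A-CREB from the other lines, no filter gave 95 higher and 88 lower genes, a pseudocount of 0.1 gave 1 lower gene, and a fit with no intensity trend gave 1 lower gene, the predicted gene Gm46614 in both of the last. Leaving out each other line gave 0 to 6 higher and 0 to 2 lower genes, with the calls arising without S133A-CREB. Without the pairing (no replicate block), the difference called 0 genes in either direction and 63 at an unadjusted p under 0.05, and TGFβ in the other lines called 250 higher and 208 lower genes. The median difference of the interferon effectors was 1.06 in the main fit and ran from 0.98 to 1.22 over the alternatives. Dropping the filter, the trend or the pairing leaves this median at 1.06 by construction, so these settings do not probe it. The p-values of the effectors did change under these settings, most of all without the pairing, so the steady median does not speak for them. The highest median came from a comparison with only the lines without S133A. The comparison with CREB construct lines alone is the same fit as the one without Vector. Serpina3g, listed at 0 in control, had 6.89 at a pseudocount of 0.1 and 1.75 at 5. Without counts, what depth limits was not measured.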
